A study of Brassica napus with 16 samples.

Results

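Roots of 2063A and B409, a pair of Brassica napus cultivars, were compared by RNA-seq in 4 libraries, 2 from each cultivar, taken from a series of 16 libraries. The members were chosen by their labels as the root libraries of each cultivar. Roots of both cultivars were harvested 7 d after the seeds were set out on damp filter paper. The other 12 libraries were made from young leaf, flower bud and silique, with 2 from each cultivar in each tissue. Young leaf was taken at 2 weeks, and for flower bud and silique the labels give a size but no age. Tissue therefore cannot be told apart from plant age or stage. Here these libraries help to set the spread of each gene and show where else a gene was expressed. Whether replicate libraries stem from different plants is not stated in the labels, so a p-value here reflects only the spread between such libraries, which may be technical.

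Brassica napus, oilseed rape, is an allotetraploid that carries the A chromosomes of a Brassica rapa-like parent and the C chromosomes of a Brassica oleracea-like parent. Most genes therefore have a homeolog, a related copy on the other subgenome. The seedling root anchors the plant and takes up water and mineral ions, and it expresses many genes that shoot organs do not. The deposited identifiers give the subgenome, the chromosome and the order of each gene (BnaC09g00530D lies on C09), and Ann, Cnn and Unn mark genes without a chromosome. The RefSeq gene table of assembly Da-Ae matched 3347 of the 101040 identifiers, by symbol only and without a product name, so genes are described by place and level, not by function, and the root label could not be checked against cell type markers.

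The 4 root libraries were alike in size. Summed FPKM (mapped fragments scaled to transcript length and library size) ran from 519039 to 525780, and 38499 to 39175 genes reached an FPKM of 1. FPKM files hold no counts, but low values fell on steps, so that the number of fragments behind each library could be compared. Relative to 2063A replicate 1, it was 0.927 in 2063A replicate 2, 0.958 in B409 replicate 1 and 0.888 in B409 replicate 2. Across tested genes, log2 values correlated at r = 0.990 between the 2063A replicates, 0.989 between the B409 replicates and 0.899 to 0.901 between cultivars, a description over genes, which are not independent.

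Over all 54206 genes tested, 2906 were called higher in 2063A root (5.36%) and 2941 higher in B409 root (5.43%), which makes 10.8% in either direction. A gene was called at an adjusted p below 0.05 (limma over 16 libraries, Benjamini-Hochberg, two-sided) with a difference of at least 1 on the log2(FPKM + 1) scale. The median difference of called genes was 1.47 on the 2063A side and -1.51 on the B409 side. A difference of at least 3 was reached by 241 and 286 genes, and one of at least 5 by 22 and 30. The libraries of the cultivars did not overlap for 32.3% of tested genes with 2063A above and for 26.9% with B409 above. In whole roots, fewer cells of a type and less RNA per cell cannot be told apart.

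The widest differences were between clear expression in each library of one cultivar and values at or near 0 in the other. BnaAnng19580D had an FPKM of 118 and 107 in the 2063A root libraries and was listed at 0 in both B409 root libraries (adjusted p = 8.5e-10, limma). It was at 8.25 and 9.80 in 2063A silique, not above 2.41 in the other 2063A tissues, and listed at 0 in all 8 libraries of B409. BnaA06g04320D was at 49.4 and 45.6 in 2063A root and listed at 0 in B409 root (adjusted p = 3.6e-10, limma). In neither gene was the difference limited to root. BnaAnng19580D was also called higher in 2063A in silique and young leaf (log2 difference 3.32 and 1.37). For BnaA06g04320D the other 2063A libraries lay between 24.5 and 121 and those of B409 did not exceed 1.90. BnaC09g00020D, near the start of C09, was at 47.0 and 46.8 in 2063A root and 0.154 and 0.124 in B409 root (log2 difference 5.39, SE 0.12, adjusted p = 7.9e-11, limma).

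On the B409 side, BnaA05g16860D was at 137 and 132 in B409 root and at 0.719 and 1.86 in 2063A root (log2 difference -5.93, SE 0.34, adjusted p = 1.3e-07, limma). It was at 5.66 to 12.2 in flower bud and silique of B409, so root was its highest tissue. BnaA03g15200D was at 53.9 and 54.9 in B409 root and listed at 0 in both 2063A root libraries (adjusted p = 7.8e-08, limma). In B409 it was also at 8.04 and 22.2 in young leaf, and it did not exceed 0.268 in the remaining B409 libraries. BnaC09g49450D, towards the end of C09, was at 83.4 and 84.1 in B409 root and 0.199 and 1.07 in 2063A root (log2 difference -5.75, SE 0.25, adjusted p = 1.6e-08, limma). The other genes among the 10 widest on each side were BnaCnng01440D, BnaC03g03750D, BnaA10g21870D, BnaA08g21880D, BnaA02g30290D, BnaC08g39130D and BnaC03g03730D, higher in 2063A, and BnaA01g33660D, BnaA04g29060D, BnaC03g23520D, BnaA03g01080D, BnaC07g35100D, BnaA01g33400D and BnaUnng04590D, higher in B409. The first 7 lay between 43.9 and 139 in the 2063A root libraries and did not exceed 0.2 in those of B409, and the last 7 lay between 56.7 and 291 in the B409 root libraries and did not exceed 2.51 in those of 2063A. Root libraries did not overlap between the cultivars for any of the 20, since that was part of the rule that named them.

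Genes expressed in root alone were defined by a mean FPKM of at least 1 over the 4 root libraries and a value below 1 in each of the other 12. The mean runs over both cultivars, so a gene can enter through the cultivar in which it is high. There were 3766 such genes among the 101040 listed, 1842 on A, 1909 on C and 15 on neither. The test covered 3738 of them, and 28 had fewer than 2 libraries at an FPKM of 1 and were left out. Most were present in both cultivars, since 2649 were at 1 or more in all 4 root libraries. A further 282 were at 1 or more in both 2063A libraries and below 1 in both of B409, 278 showed the opposite arrangement, and 557 followed neither pattern. The 282 and 278 genes entered through 1 cultivar alone.

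Of the tested root-alone genes, 367 were called higher in 2063A (9.82%, against 5.36% of all tested genes) and 434 higher in B409 (11.6%, against 5.43%). These counts depended on how genes were admitted. With no minimum fold they were 967 and 936, which turns the order of the cultivars. They were 156 and 212 when genes needed a mean FPKM of 1 over all 16 libraries to be tested, and 142 and 198 when each root library had to reach 1.

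In either direction 21.4% of root-alone genes were called, and of the 36016 tested genes with a root mean of at least 1 that were also expressed elsewhere 12.2% were. Both shares include genes that reached the mean through 1 cultivar. With each root library at 1 or more in both classes, a comparison added after the data were seen, 340 of 2649 root-alone genes (12.8%) and 2284 of 31104 others (7.34%) were called. This stricter rule removes genes that are low in 1 cultivar, so it lowers both shares. The median size of the difference was 0.43 (log2) for root-alone genes, 0.26 for those expressed elsewhere and 0.23 for all tested genes. Under the stricter rule it was 0.34 for root-alone genes and 0.23 for those expressed elsewhere. The median signed difference of root-alone genes was 0.02.

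A root-alone gene is near 0 in 12 of the 16 libraries, and these enter the estimate of its spread. The median SE of the difference was 0.128 for root-alone genes and 0.203 for genes expressed elsewhere, although within root the replicate SD of the root-alone genes was the larger, at 0.155 against 0.116 (median, log2). With the spread taken from the 4 root libraries alone, the shares called were 18.1% and 11.2%, and 11.1% and 6.92% with each root library at 1 or more. At a root mean of 10 or more, 23.7% of 688 root-alone genes and 10.5% of 10860 others were called, and 21.8% of 671 and 9.59% of 10756 with each root library at 1 or more. At a root mean from 1 to 3, the shares were 20.4% of 1812 and 14.2% of 10622, but 2.63% of 837 and 1.55% of 6399 under the stricter rule, so most calls at this level were of genes below 1 in at least 1 root library. These shares are a description, with no test of the list.

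**Figure D1:**
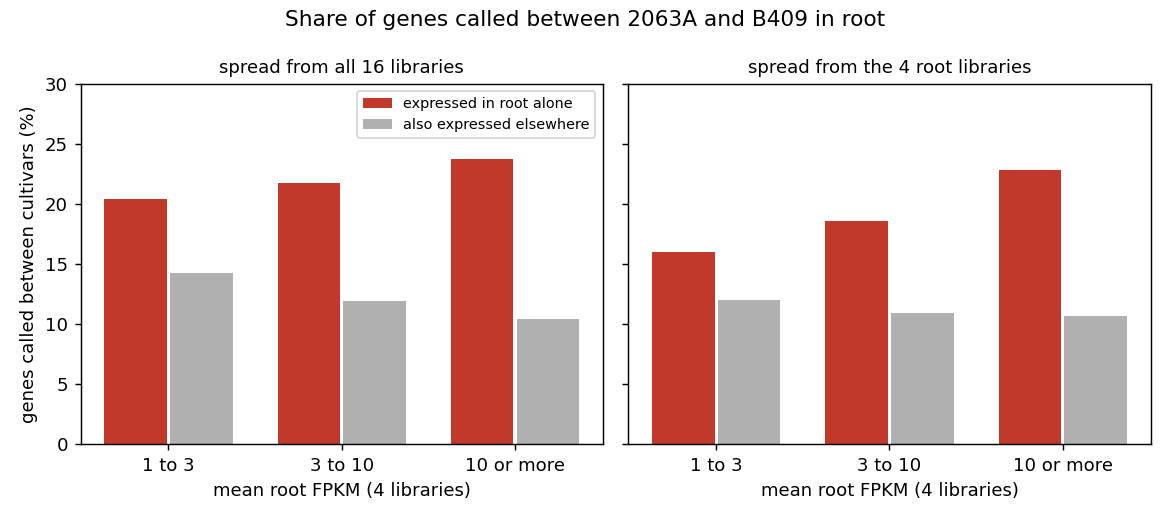
Percentage of genes called between 2063A and B409 in root (vertical axis) by mean root FPKM over 4 libraries (horizontal axis), for genes expressed in root alone (red) and genes also expressed elsewhere (grey). The left panel takes the spread from all 16 libraries and the right panel from the 4 root libraries; at 10 or more the red bar reaches 23.7% on the left and 22.8% on the right, and each class includes genes that reached the mean through 1 cultivar.

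**Figure D2:**
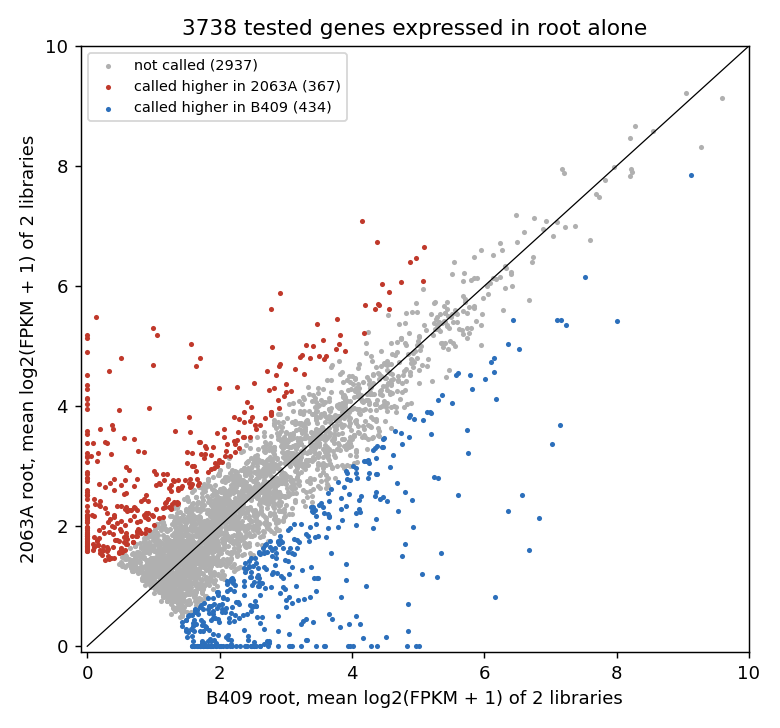
Mean log2(FPKM + 1) of the 2 root libraries of B409 (horizontal) and of 2063A (vertical) for the 3738 tested genes expressed in root alone, one point per gene, with the line of equal values. Red points are the 367 genes called higher in 2063A, blue points the 434 called higher in B409, and grey points the rest. Points on an axis are listed at 0 in both libraries of the other cultivar.

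The 4 most abundant root-alone genes that were not called reached a root mean of 664 (BnaA03g30810D), 560 (BnaC01g35290D), 468 (BnaCnng08320D) and 378 (BnaA06g40020D). BnaA03g30810D was at 565 and 554 in 2063A and 757 and 780 in B409. Its log2 difference of -0.46 (SE 0.11, adjusted p = 0.0079, limma) passed the p limit but not the minimum size. BnaA06g40020D was nearly level, at 382 and 381 in 2063A and 380 and 370 in B409. BnaCnng08320D was at 325 and 314 in 2063A and 623 and 609 in B409, and its log2 difference of -0.95 (SE 0.12, adjusted p = 0.0001, limma) was just under the minimum of 1 set for a call. These genes and those of the next paragraph were picked by their level after the values were seen.

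Among the abundant root-alone genes that were called, those on the B409 side were the more abundant. BnaA09g02030D had an FPKM of 233 and 229 in 2063A root and 553 and 558 in B409 root (log2 difference -1.26, SE 0.11, adjusted p = 3.9e-06, limma). BnaA09g08250D was at 39.4 and 43.7 in 2063A and 258 and 256 in B409 (log2 difference -2.60, SE 0.11, adjusted p = 1.4e-08, limma). Both were listed at 0 in all 12 libraries of the other tissues. On the 2063A side, BnaA01g28340D was at 136 and 132 in 2063A and 17.1 and 16.6 in B409 (log2 difference 2.92, SE 0.13, adjusted p = 2.2e-08, limma), and it did not exceed 0.214 elsewhere. BnaA01g35340D was at 103 and 108 in 2063A and 18.2 and 21.8 in B409 (log2 difference 2.35, SE 0.12, adjusted p = 4.9e-08, limma). In these 4 genes both cultivars expressed the gene in root and the level differed.

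The root-alone genes with the widest differences were, in contrast, at or near 0 in one cultivar, or at a few FPKM. BnaCnng39140D was at 43.3 and 44.4 in 2063A root and 0.063 and 0.136 in B409 root (log2 difference 5.35, SE 0.09, adjusted p = 2.8e-11, limma), and it was listed at 0 in the 12 other libraries. BnaA04g28870D was at 34.2 and 36.9 in 2063A root and listed at 0 in B409 root, and BnaA08g24910D was at 34.1 and 34.0 and likewise listed at 0. Elsewhere these last genes did not exceed 0.093 and 0.256. In the opposite direction, BnaCnng20630D was at 72.6 and 68.9 in B409 root and 0.654 and 0.882 in 2063A root (log2 difference -5.35, SE 0.10, adjusted p = 3.0e-11, limma). BnaA03g25140D was at 109 and 94.5 in B409 and 3.08 and 1.28 in 2063A (log2 difference -5.07, SE 0.22, adjusted p = 1.2e-08, limma). BnaA02g33800D was at 112 and 113 in B409 and 3.99 and 2.87 in 2063A (log2 difference -4.69, SE 0.13, adjusted p = 4.2e-10, limma), so a low root level remained in 2063A. BnaC09g46170D, BnaA09g16440D, BnaC05g42790D, BnaA01g33880D and BnaCnng57560D were listed at 0 in both 2063A root libraries and lay between 18.4 and 32.7 in B409 root. BnaCnng20550D (26.7 and 28.9 in B409) and BnaCnng02720D (19.8 and 24.1) were listed at 0 in 1 of the 2063A root libraries and at 0.434 and 0.24 in the other. On the 2063A side, BnaC02g45130D, BnaAnng34230D, BnaC09g00530D and BnaC04g51820D were listed at 0 in B409 root and lay between 16.9 and 29.6 in 2063A root. BnaC08g46330D, at 39.8 and 37.1 in 2063A root, kept a low level of 0.961 and 1.04 in B409 root, and BnaUnng01640D and BnaA08g22890D did not exceed 0.679 there against 22.7 or more in 2063A root.

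**Figure D3:**
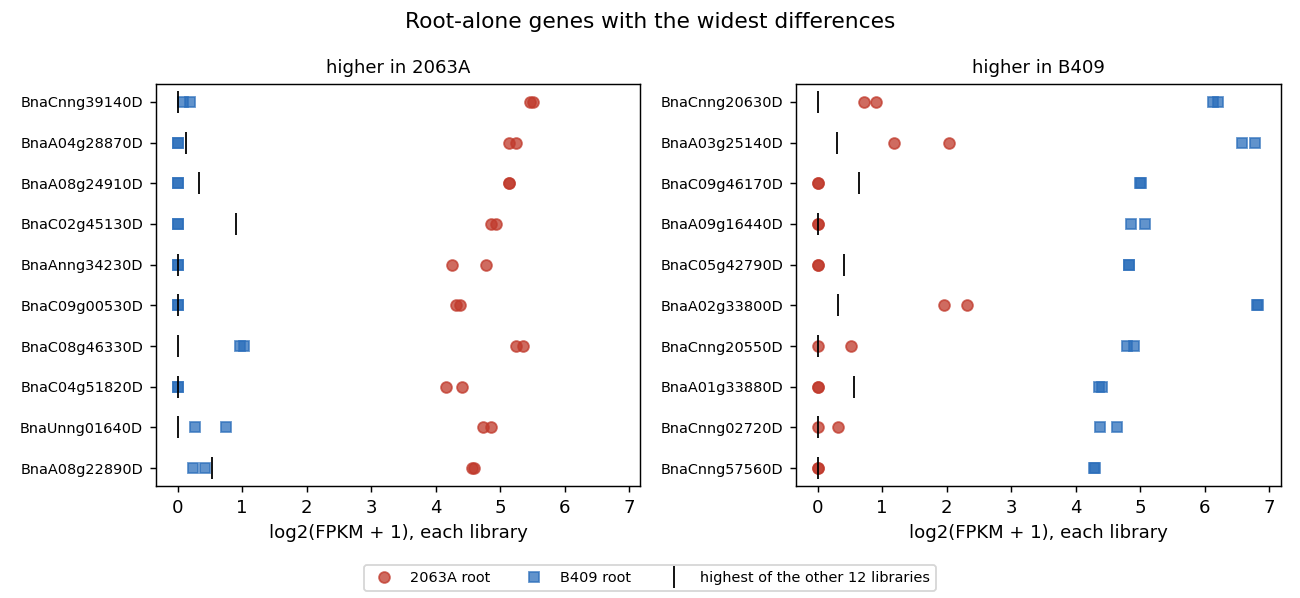
log2(FPKM + 1) in each root library (red circles, 2063A; blue squares, B409) for the 10 root-alone genes with the widest difference in each direction, with a black bar at the highest of the other 12 libraries. In each gene shown the replicates lie close together compared with the gap between cultivars, and the black bar stays below 1.

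Some genes were listed at 0 in one cultivar's root, which in files without counts can also be a value too low to be estimated. In 543 genes both 2063A root libraries were at 1 or more and both B409 root libraries were listed at 0 (1.0% of tested genes), and in 562 genes the reverse held (1.04%). The first set held 221 A and 320 C genes, which is 0.497% of listed A and 0.571% of listed C genes. The second held 249 A and 310 C genes (0.560% and 0.553%). Root-alone genes made up 69 and 65 of them, from 3766 root-alone genes in all. An FPKM of at least 5 in both expressing libraries was found in 144 and 140. Many of these genes were also low in the other tissues of the cultivar in which root was listed at 0. Of the 543 genes, 344 were listed at 0 in all 8 libraries of B409 and 41 reached 1 in some other B409 library. Of the 562 genes, 185 were listed at 0 in all 8 libraries of 2063A and 163 reached 1 in some other 2063A library.

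The genes with the highest level elsewhere in the cultivar listed at 0 in root were picked after seeing the values. BnaC09g48610D, towards the end of C09, was listed at 0 in 2063A root, at 1.56 and 1.52 in B409 root, and at 29.3 to 33.3 in 2063A silique. BnaC08g47170D was listed at 0 in 2063A root, at 1.77 and 1.31 in B409 root, and at 75.2 and 59.6 in 2063A young leaf. BnaCnng02630D was listed at 0 in 2063A root, at 1.91 and 2.27 in B409 root, and at 54.5 and 59.2 in 2063A silique. On the other side, BnaAnng00160D was at 2.39 and 2.75 in 2063A root, listed at 0 in B409 root, and at 720 to 2252 in the young leaf libraries of both cultivars. BnaC08g05110D, at 2.72 and 1.76 in 2063A root and listed at 0 in B409 root, was at 224 to 490 in young leaf. Abundant leaf transcripts at low level in root were therefore summed. A set of 207 genes, at 200 FPKM or more in each young leaf library and below a root mean of 10, summed to 237 and 236 in 2063A root and 159 and 143 in B409 root, which is 0.0450% and 0.0452% against 0.0303% and 0.0275% of summed FPKM. Of these, 81 lay higher in 2063A without overlap (39.1%, against 32.3% of all tested genes) and 12 higher in B409 (5.80%, against 26.9%). Calls numbered 15 (7.25%, against 5.36%) and 3 (1.45%, against 5.43%), and 91 to 93 had a listed 0 in each 2063A root library against 135 to 137 in each of B409. Their part in the low-level differences was not tested.

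Differences in root were next set beside those in the other tissues, which come from separate libraries but share the spread estimate of each gene. Of the 2906 genes higher in 2063A root, 1493 were also called higher in 2063A in flower bud (51.4% of the root list and 40.6% of the flower bud list), 1317 in silique (45.3% and 56.3%) and 1197 in young leaf (41.2% and 51.0%). Over all tested genes, calls in that direction made up 6.78% (flower bud), 4.32% (silique) and 4.33% (young leaf). Of the 2941 genes higher in B409 root, 1203 were called in flower bud (40.9% and 40.2%), with 1218 in silique (41.4% and 47.6%) and 1303 in young leaf (44.3% and 48.1%), where 5.52%, 4.72% and 5.00% of tested genes were called in that direction. Calls in no other tissue were left for 1026 and 1106 genes, of which 367 and 434 were the root-alone genes, whose values elsewhere are too low for a call by definition. A call in the opposite direction in at least 1 other tissue was found for 52 and 36 genes.

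Whether a root difference departed from the mean difference in the other 3 tissues was tested directly. This departure was called towards 2063A for 1457 genes (2.69% of tested genes) and towards B409 for 1690 (3.12%), 5.81% in all. For root-alone genes the departure nearly restates the root difference, because the other tissues lie below 1 by definition, and 9 of the 10 widest departures were in such genes (the other was BnaAnng19580D). Among the 27663 tested genes with a mean of at least 1 in each of the 6 other groups, 290 and 325 were called. In 77 and 94 of these the cultivars differed by a call in root, in the same direction, and in no other tissue. The root contrast and the departure share the root libraries, so these counts serve only to choose the following examples, which were picked after seeing the values.

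BnaC04g01240D had an FPKM of 12.5 and 14.6 in 2063A root and 0.217 and 0.117 in B409 root. In the other tissues it was expressed in both cultivars, at 5.53 to 22.9 in 2063A and 7.06 to 18.2 in B409, and the departure was 3.64 (log2, SE 0.17, adjusted p = 7.3e-08, limma). BnaA09g43670D was at 11.7 and 11.9 in 2063A root and 0.313 and 0.253 in B409 root, against 1.01 to 3.90 over the 12 other libraries (departure 3.40, SE 0.17, adjusted p = 1.3e-07, limma). BnaC05g46990D went the other way. It was at 6.07 and 6.0 in 2063A root and 54.9 and 54.6 in B409 root, and at 17.1 to 40.9 in the other libraries (departure -3.16, SE 0.14, adjusted p = 4.7e-08, limma). BnaCnng05740D was at 2.26 and 2.04 in 2063A root and 13.2 and 13.4 in B409 root, and its differences in young leaf, flower bud and silique were 0.00, -0.05 and 0.06 (departure -2.19, SE 0.23, adjusted p = 5.1e-05, limma). In each of these genes the root libraries of the cultivars did not overlap. That they were called in root and in no other tissue was part of the rule that chose them.

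On the A subgenome 1776 of 26678 tested genes were higher in 2063A root (6.66%) and 1530 higher in B409 root (5.74%). On the C subgenome the counts were 1120 of 27387 (4.09%) and 1404 (5.13%). Of root-alone genes, 11.5% and 12.3% of 1829 tested A genes and 8.13% and 11% of 1894 tested C genes were called. A genes supplied 49.47% and 49.45% of summed FPKM in the 2063A root libraries and 48.85% and 48.88% in those of B409, a difference of 0.59 percentage points. Without the 100 most abundant genes the difference was 0.90 percentage points. The groups did not overlap, but 2 against 2 libraries cannot go below p = 0.333 (exact permutation test, two-sided), which is the p obtained.

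Chromosomes differed widely. Calls towards 2063A root made up the largest share of tested genes on A10 (327 of 1976, 16.5%) and A02 (232 of 2103, 11%), against 5.36% of all tested genes, and lowest on C05 (1.97%). Calls towards B409 root made up the largest share on C02 (229 of 1962, 11.7%) and C09 (277 of 2723, 10.2%), against 5.43%, and lowest on C06 (2.67%). Among named chromosomes, root-alone genes were called higher in 2063A most often on A10 (27 of 124, 21.8%), A02 (31 of 158, 19.6%) and C02 (28 of 153, 18.3%). Over all tested root-alone genes this share was 9.82%. On C02 only 6.73% of all tested genes were called in that direction, against 16.5% on A10 and 11% on A02. Root-alone genes were called higher in B409 most often on A01 (28 of 148, 18.9%), C02 (25 of 153, 16.3%) and C09 (28 of 176, 15.9%). Over all tested root-alone genes this share was 11.6%. Of all tested genes on A01, 7.89% were called in that direction. On C02 the shares of root-alone genes called therefore lay above those over all tested root-alone genes in both directions.

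**Figure D4:**
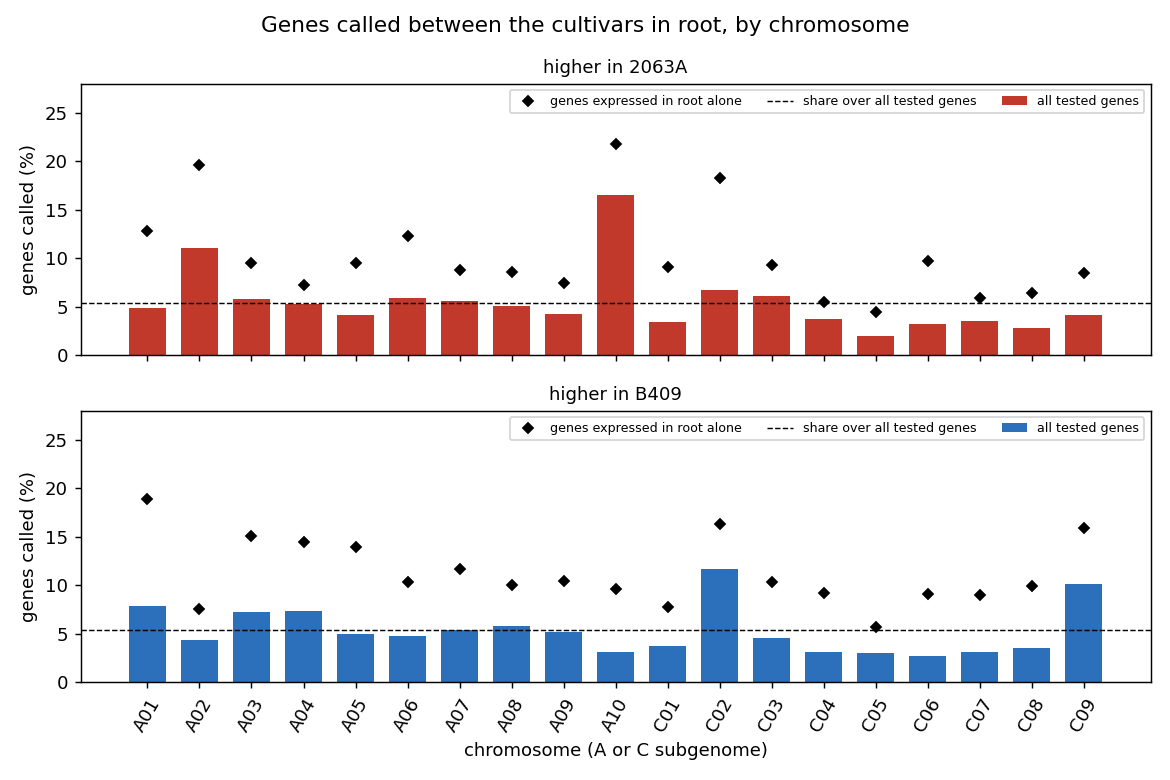
Percentage of tested genes called higher in 2063A root (upper panel) and higher in B409 root (lower panel) on each named chromosome (bars), the same for genes expressed in root alone (diamonds), and the share over all tested genes (dashed line). A10 reaches 16.5% in the upper panel and C02 11.7% in the lower.

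Called genes were unevenly placed within chromosomes. In 960 windows of 50 adjacent tested genes, the median was 2 called genes in each direction, and 220 windows had none in each direction. At least 10 genes higher in 2063A were found in 31 windows, 10 of them on A10. These windows held 22.5% of such genes on named chromosomes. At least 10 genes higher in B409 were found in 37 windows, 8 on C02 and 7 on C09, with 27.6% of such genes. The share higher in 2063A was 6.56% on A and 4.01% on C named chromosomes, and outside these windows 5.46% and 3.01%. For genes higher in B409 it was 5.68% and 4.91%, and outside these windows 4.78% and 3.18%. Lower shares outside were set in advance, because the windows were chosen by these calls. Of called root-alone genes on named chromosomes, 15.5% on the 2063A side and 15.1% on the B409 side lay in these windows, and of the other called genes 23.5% and 29.8%. These differences were not tested.

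The window with most genes higher in 2063A root was the first of C09, from BnaC09g00010D to BnaC09g00680D. There 40 of 50 genes were called and the median difference was 2.06 in root, 1.92 in young leaf, 2.70 in flower bud and 2.63 in silique. In 29 of its genes both B409 root libraries were listed at 0 while both of 2063A were at 1 or more, and it held the root-alone gene BnaC09g00530D, at 19.0 and 19.7 in 2063A root. The sixth window of C03 followed with 35 genes and a median of 1.69, and windows on A02 and A10 had 29 each. The A02 window differed from the first of C09. Its median was 1.16, yet in 0 of its genes were both B409 root libraries listed at 0 while both of 2063A reached 1. Towards B409, 6 neighbouring windows near the end of C09, from BnaC09g46200D to BnaC09g50880D, held 30 to 39 called genes each, with root medians from -2.23 to -1.71. Their medians were -1.71 to -1.11 in young leaf, -0.70 to -0.51 in flower bud and -0.41 to -0.18 in silique. In each of these 6 windows 23 to 32 of the 50 genes departed in root towards B409.

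A stretch of C02, singled out after its values were seen, had its widest median difference towards 2063A in root. In the window from BnaC02g43460D to BnaC02g44780D, 26 of 50 genes were called higher in 2063A root and 1 higher in B409, and the median difference was 1.21 in root against 0.10 in young leaf, 0.33 in flower bud and 0.25 in silique. The departure was called towards 2063A in 18 of the 50 genes and towards B409 in 0. Genes that are low outside root in both cultivars, as root-alone genes are by definition, can show only small differences there. How far low levels account for the small medians outside root was not tested. In the preceding window the order of the tissues differed, with a median of 0.11 in root and 0.95 in silique. In 17 genes both B409 root libraries were listed at 0 while both of 2063A were at 1 or more. The window held 8 root-alone genes, and each was called higher in 2063A, against 9.82% of all tested root-alone genes. A gene listed at 0 in B409 root can enter this class only through 2063A, so that direction is partly set by the rule. BnaC02g43630D was at 10.2 and 11 in 2063A root, BnaC02g43920D at 16.5 and 16.8, and BnaC02g44510D at 13.7 and 15.4, and B409 root was at a listed 0 for all 3 in both libraries (adjusted p = 6.9e-11, 2.9e-11 and 6.1e-11, limma). BnaC02g43700D was at 40.1 and 41.4 in 2063A root and 0.061 and 0.066 in B409 root and was not limited to root, since it reached 15.8 elsewhere. Earlier on C02, the window from BnaC02g37350D to BnaC02g38530D lay lower in 2063A, with a median of -1.09 in root and -1.73, -1.44 and -1.75 in young leaf, flower bud and silique, and 14 of its genes departed in root towards 2063A.

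**Figure D5:**
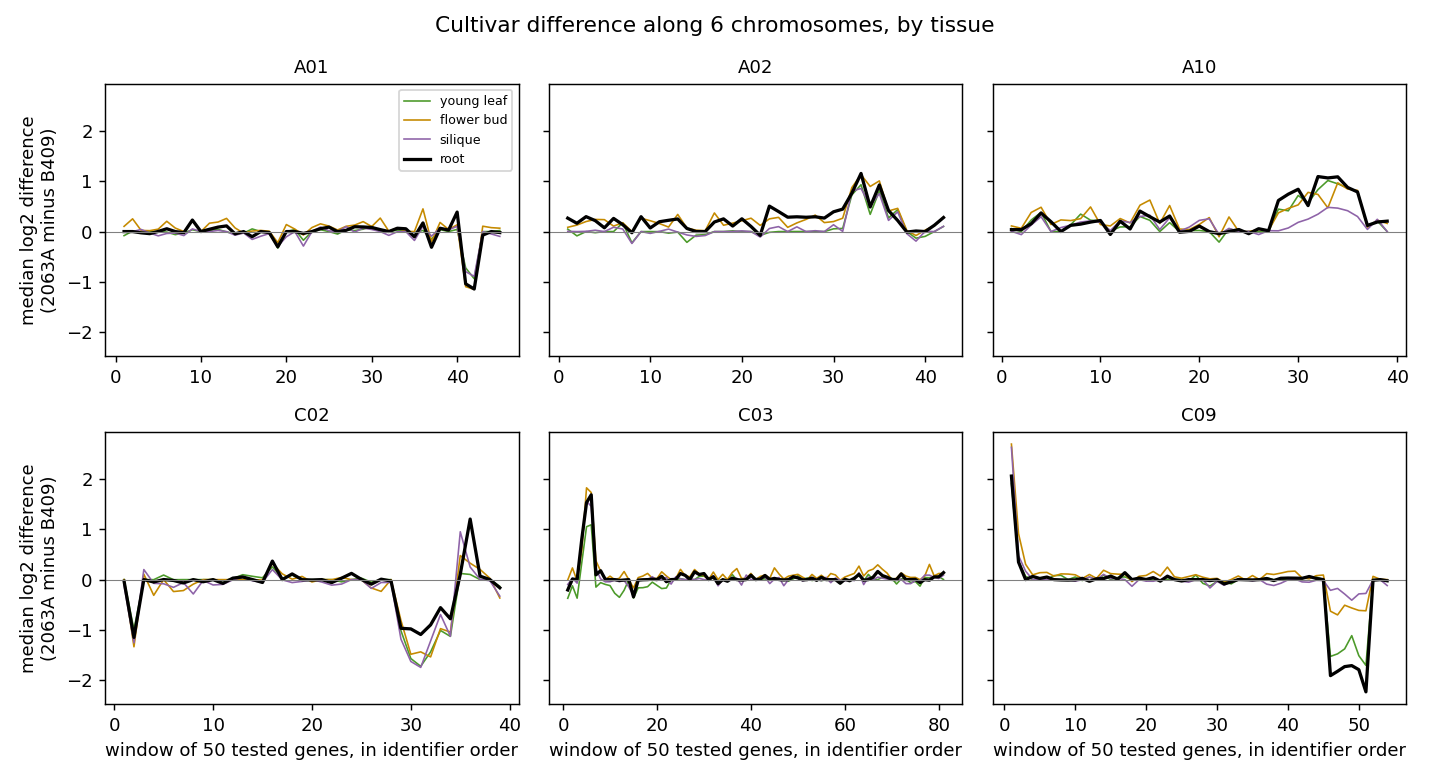
Median log2 difference, 2063A minus B409, in successive windows of 50 tested genes in identifier order along 6 chromosomes, for root (thick black) and the other tissues (thin lines). Towards the end of C09 the root medians reach -2.23 while those of silique stay between -0.41 and -0.18, and root rises to 1.21 at 1 place on C02 where young leaf is at 0.10.

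Unbroken runs of at least 5 adjacent tested genes called in 1 direction numbered 28 for 2063A, 8 on A and 20 on C chromosomes, and 27 for B409, 3 on A and 24 on C. The longest held 14 genes, BnaC03g03660D to BnaC03g03790D for 2063A (median difference 2.85), and BnaA01g33640D to BnaA01g33940D (-2.98) and BnaC09g47330D to BnaC09g47460D (-1.97) for B409. Inside such runs lay 16 of the 328 root-alone genes called higher in 2063A on named chromosomes and 8 of the 377 called higher in B409. Of all called genes on named chromosomes, 194 of 2569 and 207 of 2572 lay in such runs. The difference was not tested. Of the 20 root-alone genes with the widest differences, 4 lay in runs: BnaC09g00530D and BnaC04g51820D on the 2063A side, and BnaC05g42790D and BnaA01g33880D on the B409 side.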

How the data were processed

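The authors deposited 1 FPKM value per gene and library. Per the submitters' processing notes, Trimmomatic, TopHat2 and Cufflinks 2.1.1 were used; the build and the annotation were not given in the sources used here. How reads shared by homeologs were assigned is also unknown, so near-identical copies are uncertain. The scale used was log2(FPKM + 1), which understates changes of low genes. The test took the 54206 genes that reached an FPKM of 1 in 2 or more libraries, and was run with limma 3.58.1 in R 4.3.3, with 1 mean per cultivar and tissue, a mean-variance trend, 8 residual and 3.35 prior degrees of freedom. The method was tested on simulated data in which each gene had the same spread in every group. That cannot show how it performs where the spread differs between tissues. Relative depth was the commonest ratio of values below 0.5 between libraries; 82.8% to 84.8% of such ratios were that ratio times a quotient of whole numbers up to 5, within 0.3%. No counting interval was computed. A fold is not stated where a group is listed at 0.

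The named genes are the 10 widest called differences without overlap in each direction over all genes and among root-alone genes, the 5 widest departures in each direction, and the 3 windows with most calls in each direction. Gene lists by product name could not be built because no product names were at hand. Members and rules were chosen with earlier results of these data known. Alternatives covered the pseudocount, filter, scaling, spread, replicate block, single libraries and fold minimum. No reference sequence was used here.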

Additional observations from a re-analysis of the deposited data

Results flagged for a closer look

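A departure of the cultivar difference in root from its mean over the other 3 tissues was called in 34 of the 40 genes named by rule. A call needed an adjusted p below 0.05 (limma) and a size of at least 1. BnaC08g39130D (0.83), BnaCnng01440D (0.60) and BnaC09g00020D (0.59) passed the p limit (adjusted p = 0.0013, 0.013 and 0.013, limma) but not that size. Values below are differences of log2 differences, 2063A minus B409, for the genes called. Over all tested genes 5.81% were called. The 40 genes were named for a wide root difference or a wide departure. The root difference is part of the departure, so the high count follows largely from that choice. Among genes expressed outside root, the departure was 5.07 in BnaAnng19580D, 3.25 in BnaC03g03750D, 1.53 in BnaC03g03730D and 1.08 in BnaA08g21880D. Towards B409 it was -4.54 in BnaC09g49450D, -4.44 in BnaA03g15200D, -3.79 in BnaUnng04590D, -3.76 in BnaA01g33660D and -3.58 in BnaA05g16860D. It was -2.56 in BnaC07g35100D, -2.55 in BnaA04g29060D, -2.19 in BnaA01g33400D, -1.78 in BnaA03g01080D and -1.71 in BnaC03g23520D. Some of these genes were near 0 in one cultivar in every tissue. In B409, BnaAnng19580D was listed at 0 throughout, and BnaC03g03750D and BnaA08g21880D did not exceed 0.058 and 0.502. BnaA03g15200D did not exceed 0.084 in 2063A. In such genes the departure largely follows the level of the expressing cultivar across tissues.

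For root-alone genes the departure nearly restates the root difference. It was 5.35 in BnaCnng39140D, 5.17 in BnaA04g28870D, 5.08 in BnaA08g24910D, 4.51 in BnaAnng34230D, 4.39 in BnaC02g45130D, 4.35 in BnaC09g00530D, 4.30 in BnaC08g46330D, 4.29 in BnaC04g51820D and in BnaUnng01640D, and 4.02 in BnaA08g22890D. Towards B409 it was -5.35 in BnaCnng20630D, -5.02 in BnaA03g25140D, -4.97 in BnaA09g16440D, -4.91 in BnaC09g46170D, -4.78 in BnaA02g33800D, -4.71 in BnaC05g42790D, -4.59 in BnaCnng20550D, -4.36 in BnaCnng02720D, -4.29 in BnaCnng57560D and -4.14 in BnaA01g33880D. In BnaC02g45130D the root difference was 4.89, and smaller differences in flower bud (0.84) and silique (0.67) lay under the size needed for a call.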

How the results depend on the processing

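With no minimum fold, the root calls were 6198 higher in 2063A and 5489 higher in B409, on A genes 3750 and 2951, on C genes 2428 and 2526, among root-alone genes 967 and 936, and the departures 3465 and 3238. Root-alone calls were 156 and 212 when genes needed a mean FPKM of 1 over all 16 libraries, which leaves fewer of them to test, and 142 and 198 when each root library had to reach 1 (340 of 2649 genes in all), which removes genes low in a cultivar. The A share difference was 0.90 percentage points without the 100 most abundant genes and 0.53 on named chromosomes; the cause was not tested. The other counts stayed within 1.5 times under the other alternatives. A pseudocount of 0.1 gave 4239 and 3821 root calls, the 4 root libraries alone 2600 and 2669, and quantile normalization 2718 and 3003. Leaving out any root library gave 2707 to 2855 and 2757 to 2813, with the lone remaining library assumed to vary like the other groups. With the replicate block the counts were 2900 and 2926, and the departures 1444 and 1665; same-numbered libraries did not deviate together in root (r = -0.006 over genes), flower bud (-0.040) or silique (0.042) but did in young leaf (0.335), so the numbers were not taken as pairs. Without the 4 young leaf libraries the root calls were 2974 and 2999 and the departures 1745 and 2221. The departure has no value from the 4 root libraries alone. The files hold no counts, so the precision of low values is not known. All 640 alternative values of the 40 named genes kept their direction and call.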
